A study of Homo sapiens with 9 samples.

Results

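Solute carrier (SLC) genes encode the largest superfamily of membrane transporters in human cells, and the sites occupied by the SWI/SNF chromatin remodeler around them were taken from the peak lists of 3 of its alternative ARID subunits. A peak was counted as an SLC peak when its deposited nearest-gene name began with SLC and a digit, and 3 peaks of 2 antisense names were left out. By this rule 622 of 34575 ARID peaks belonged to 183 of the 12428 gene names in the lists, with 247 of 12852 peaks for ARID1A, 153 of 8728 for ARID1B and 222 of 12995 for ARID2. The 183 names came from 42 SLC families on 21 chromosomes, and 134, 86 and 121 of them appeared in the ARID1A, ARID1B and ARID2 list. Some of the names are not transporters: SLC2A4RG, SLC4A1AP, SLC7A6OS, SLC9A3R1 and SLC9A3R2 encode regulators, scaffolds or neighbouring proteins, and SLC7A5P1 and SLC7A5P2 are pseudogenes. In the annotation used here, 178 of the names were protein-coding, 4 were not and 1 could not be matched.

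The study mapped where Arid1a, Arid1b, Arid2 and Snf5 sit on the chromatin of untreated HepG2 cells, an established human hepatocellular carcinoma line, by chromatin immunoprecipitation and sequencing. Snf5 (also BAF47 or SMARCB1) is a core subunit carried by the complexes that contain ARID1A, ARID1B or ARID2. Each antibody had 2 replicates, which the authors merged before calling peaks, and 1 input library completed the 9 libraries. There was therefore 1 peak list per subunit, no spread between replicates could be measured, the depth behind a peak was unknown, and no p-value is given. Intervals in brackets are Wilson 95% intervals that cover counting error over peaks or genes only, and neighbouring peaks and overlapping lists are not independent of each other. A peak shows that the antibody enriched the site, and carries no information on transcript level.

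The lists carried sites at genes that define hepatocytes. APOB, which encodes the main protein of liver lipoproteins, had 6 ARID1A, 8 ARID1B and 8 ARID2 peaks, and all 22 overlapped an SNF5 peak. The liver transcription factor gene HNF4A had 3, 0 and 4 peaks and FOXA2 had 3 in each list, while the marker TTR had no assigned peak.

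SLC proteins move amino acids, sugars, ions, metals, vitamins, nucleotides and drugs across the plasma membrane or the membranes of mitochondria, Golgi and vesicles, mostly as exchangers or by coupling to an ion gradient. Hepatocytes use them for bile acid and drug uptake, glucose release, amino acid and ammonia metabolism and metal storage. Dividing tumor cells are known for high levels of the carriers that import essential amino acids and export lactate.

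To show what the shared sites look like, stretches covered by the peaks of all 3 ARIDs at SLC genes are printed from the plus strand of GRCh37 (hg19), with any of the 7 motifs that were searched in capitals. The SLC39A3 stretch (chr19:2740171-2740306) lies just upstream of the zinc importer gene, is the whole stretch shared by the 3 peaks, and had the highest SNF5 score of any SLC site. Its capitals mark a CCAAT box on the minus strand, the strand of the gene. The SLC25A25 stretch (chr9:130865423-130865558) is a promoter site of a mitochondrial ATP-magnesium/phosphate carrier, and its capitals mark a C/EBP match (TTGCNNAA). The 3 SLC7A5 stretches are from the amino acid exchanger gene with most peaks: the first (chr16:87881579-87881679) and the second (chr16:87890176-87890287) are intronic, and the third (chr16:87904232-87904278) is upstream of the gene. The SLC16A3 stretch (chr17:80189236-80189535) is the middle 300 bases of a 347 bp stretch at an internal promoter of the lactate exporter gene.
SLC39A3: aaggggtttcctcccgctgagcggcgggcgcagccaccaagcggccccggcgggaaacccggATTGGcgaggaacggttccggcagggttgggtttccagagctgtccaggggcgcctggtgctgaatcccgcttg
SLC25A25: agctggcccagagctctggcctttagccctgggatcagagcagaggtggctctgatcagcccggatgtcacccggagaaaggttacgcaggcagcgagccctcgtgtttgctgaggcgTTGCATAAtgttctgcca
SLC7A5 intron, first: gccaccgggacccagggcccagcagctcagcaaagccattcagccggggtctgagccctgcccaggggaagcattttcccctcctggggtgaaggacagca
SLC7A5 intron, second: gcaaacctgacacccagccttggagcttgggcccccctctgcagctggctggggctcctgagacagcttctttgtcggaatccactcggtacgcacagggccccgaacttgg
SLC7A5 upstream: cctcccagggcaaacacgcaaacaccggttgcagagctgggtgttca
SLC16A3: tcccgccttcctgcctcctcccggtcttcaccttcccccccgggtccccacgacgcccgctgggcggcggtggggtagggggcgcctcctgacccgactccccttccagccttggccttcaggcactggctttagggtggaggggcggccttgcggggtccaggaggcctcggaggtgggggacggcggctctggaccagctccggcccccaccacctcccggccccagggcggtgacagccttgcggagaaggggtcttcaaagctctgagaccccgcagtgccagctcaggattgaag
The SLC39A3 stretch was 69.1% G or C with 13 CpG steps, and the SLC16A3 stretch was 71.3% G or C with 20 CpG steps. The 2 intronic SLC7A5 stretches were also rich in G and C (66.3% and 63.4%) but had 2 and 4 CpG steps.

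ARID1A and ARID2 sat mainly at SLC promoters, and ARID1B mainly away from them. In the ARID1A list 174 of 247 SLC peaks were of the promoter class (70.4%, 64.5 to 75.8), which in the deposited rows ended 998 bp from a transcription start site (TSS), beside 72.6% of all ARID1A peaks. In the ARID2 list 140 of 222 SLC peaks were of that class (63.1%, 56.5 to 69.1), beside 67.0% of all ARID2 peaks. For ARID1B it was 67 of 153 SLC peaks (43.8%, 36.2 to 51.7), beside 37.9% of all ARID1B peaks. The lists also name many noncoding genes, and when both sides were limited to coding names the ARID1B share at SLC genes was also below that of the list. The promoter share was then 70.4% (64.3 to 75.8) at SLC genes and 79.5% at all coding genes for ARID1A, 64.0% (57.4 to 70.1) and 73.4% for ARID2, and 44.2% (36.4 to 52.3) and 48.4% for ARID1B. SLC genes thus had fewer of their peaks at promoters than coding genes in general, beyond the counting interval for ARID1A and ARID2. Part of this difference came from SLC7A5, as given below. The median distance from an SLC peak to the nearest TSS was 326 bp for ARID1A, 1446 bp for ARID1B and 518.5 bp for ARID2. Of the 622 SLC peaks, 511 lay at most 5000 bp from a TSS and 6 lay over 50000 bp away.

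Introns held most of the other peaks. The intron class took 19.8% of ARID1A, 40.5% of ARID1B and 23.4% of ARID2 SLC peaks, beside 12.9%, 33.9% and 17.5% of the whole lists, and the distal class took 7.69%, 13.7% and 10.8%, beside 12.6%, 25.8% and 13.6%. Among coding names, introns held 20.2%, 42.2% and 23.8% of SLC peaks and 11.2%, 33.2% and 16.2% of all peaks. The distal class there held 7.41%, 11.6% and 9.35% of SLC peaks and 7.69%, 16.1% and 8.83% of all peaks, so that it was near the list for ARID1A and ARID2. Much of the intron difference came from SLC7A5, which holds 38 intronic peaks. Without its peaks the intron shares over all SLC names fell to 13.8%, 37.1% and 20.2%. The ARID1A promoter share over all SLC names rose to 76.4% (70.5 to 81.5), an interval that holds the 79.5% of coding names. That of ARID2 rose to 66.8% (60.2 to 72.9), an interval that ended just below the 73.4% of coding names. Shares over coding SLC names without SLC7A5 were not computed. Promoter-class peaks of coding SLC genes also had another coding gene nearby less often. Over the 3 lists, a start of another coding gene lay within 1000 bp of 50 of 373 such peaks (13.4%, 10.3 to 17.2), beside 20.2% of those of all coding genes. The same promoter can be counted repeatedly there. By list the share was 12.9% (8.65 to 18.7) beside 20.3% for ARID1A. For ARID1B it was 12.3% (6.37 to 22.5) beside 19.1%, and for ARID2 14.6% (9.65 to 21.5) beside 20.4%. Only the ARID1A interval lay below its background.

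SNF5 was present at most SLC sites. An SNF5 peak overlapped 179 ARID1A SLC peaks by at least 1 bp (72.5%, 66.6 to 77.7), beside 71.3% of all ARID1A peaks, and 141 ARID2 SLC peaks (63.5%, 57.0 to 69.6), beside 67.2%. For ARID1B the share was higher at SLC genes, with 115 of 153 peaks (75.2%, 67.8 to 81.3) beside 62.9% of the list, 103 of 140 (73.6%, 65.7 to 80.2) without SLC7A5, and 76.9% (69.4 to 83.0) beside 66.5% among coding names. The ARID1B difference was seen at peaks that no other ARID overlapped, where SNF5 was at 53 of 84 SLC peaks (63.1%, 52.4 to 72.6) and at 44.5% of all such ARID1B peaks, and no SLC7A5 peak was among them. It was seen in introns as well, with 47 of 62 SLC peaks (75.8%, 63.8 to 84.8) beside 54.0%, and 37 of 52 (71.2%) without SLC7A5. ARID2 peaks without another ARID went the other way, since 43 of 110 had SNF5 (39.1%, 30.5 to 48.4) beside 48.5%. No test bears on these differences.

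Peaks that overlapped a peak of another ARID are called multiple here and the others single, by an overlap of at least 1 bp. Multiple peaks made up 116 of the ARID1A SLC peaks (47.0%, 40.8 to 53.2), beside 47.6% of the list. They made up 69 of the ARID1B SLC peaks (45.1%, 37.4 to 53.0), beside 40.1% of the list, and 112 of the ARID2 SLC peaks (50.5%, 43.9 to 57.0), beside 46.9%. All 3 intervals held the value of the whole list. SNF5 was at 91.4%, 89.9% and 87.5% of multiple SLC peaks in the ARID1A, ARID1B and ARID2 list.

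**Figure D1:**
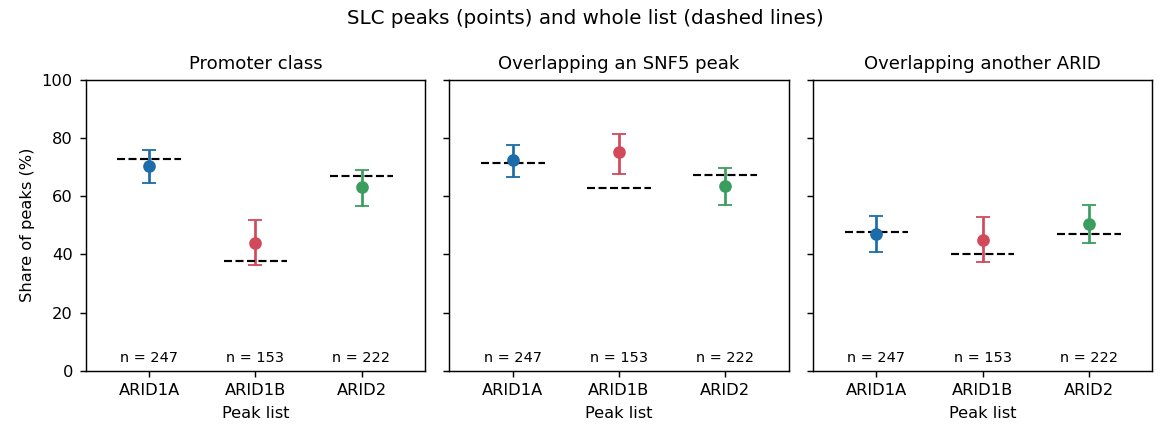
Share of SLC peaks (points, Wilson 95% interval, n below) of the promoter class, overlapping an SNF5 peak and overlapping another ARID, by peak list, with dashed lines at the share of all peaks of the same list. The ARID1B point for SNF5 (75.2%) is the only one whose interval does not reach its dashed line (62.9%).

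When overlapping peaks were merged, the SLC peaks formed 451 regions, of which 126 held 2 or 3 ARIDs (27.9%, 24.0 to 32.3) beside 25.3% of all 25247 merged regions. SNF5 followed the number of ARIDs, with 169 of 325 SLC regions with 1 ARID (52.0%), 77 of 88 with 2 (87.5%) and 38 of 38 with 3. Over all regions the shares were 49.7%, 87.3% and 97.4%. The score of the overlapping SNF5 peak, the highest where there were several, also rose. Its median at ARID1A SLC peaks was 21 with ARID1A alone, 25 with 2 ARIDs and 26 with 3. At ARID2 SLC peaks the medians were 22, 25 and 28. This order was that of all peaks, where the medians were 21, 23 and 27 for both ARIDs. The SNF5 list held 20718 peaks with a median score of 19. Multiple peaks were wider than single ones (median 297 and 169 bp for ARID1A SLC peaks), and the part of width in these orders was not tested.

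By gene, SLC names were shared between lists about as often as coding names in general. Of the 183 names 109 were in 2 or 3 lists (59.6%, 52.3 to 66.4), beside 54.3% of all names, and 49 were in all 3 (26.8%, 20.9 to 33.6), beside 21.1%. Among coding names the shares were 60.1% (52.8 to 67.0) of SLC names and 60.1% of all names in 2 or 3 lists, and 27.0% (21.0 to 33.9) and 23.0% in all 3. ARID1A and ARID2 shared 43 names that ARID1B lacked (23.5%), beside 23.0% of all names, so that this most frequent pair was that of the lists as a whole. ARID1A and ARID1B alone shared 11 (6.01%, beside 5.63%), and ARID1B and ARID2 alone shared 6 (3.28%, beside 4.59%). A single list held 31 names for ARID1A (16.9%, beside 18.3%), 20 for ARID1B (10.9%, beside 13.3%) and 23 for ARID2 (12.6%, beside 14.2%). ABC transporters, the other large transporter superfamily, had 85 peaks at 29 names, and 18 of these names were in 2 or 3 lists (62.1%). The SLCO organic anion transporters had 7 peaks at 4 names, none of them from ARID2.

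The peaks were spread unevenly over the genes. The median was 2 peaks per SLC name, as for all names, 61 names had 1 peak and 37 had at least 5, and the 10 names with most peaks held 27.3% of all SLC peaks.

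**Figure D2:**
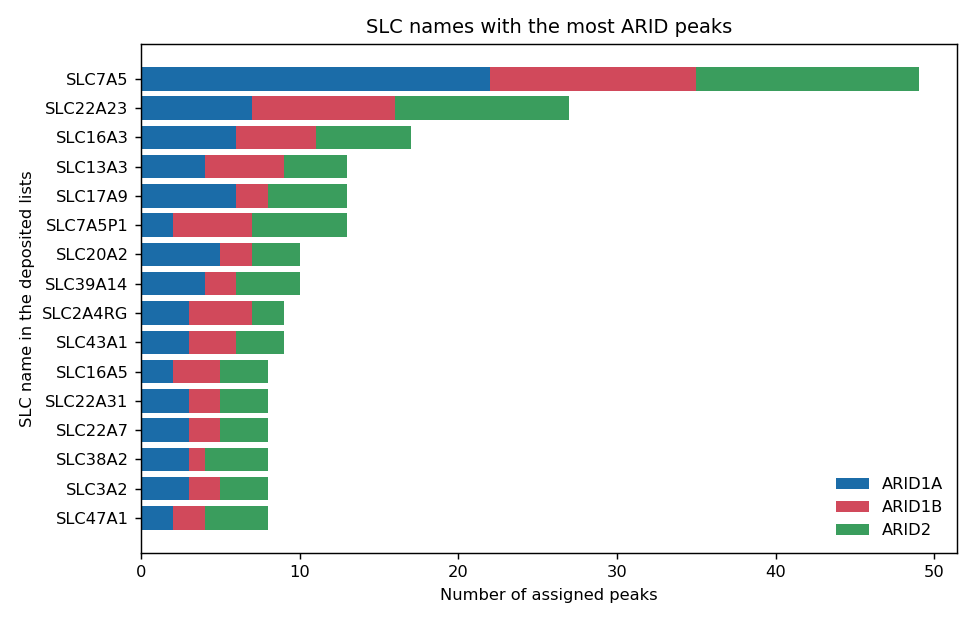
Number of peaks assigned to each SLC name with at least 8 peaks, coloured by ARID list. SLC7A5 has 49 peaks, SLC22A23 27 and SLC16A3 17, and each name shown has peaks of all 3 ARIDs.

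SLC7A5 encodes LAT1, which exchanges intracellular glutamine for leucine and other large neutral amino acids and thereby feeds growth signalling through mTORC1. It had 22 ARID1A, 13 ARID1B and 14 ARID2 peaks, which made 7.88% of all SLC peaks and put it at rank 5 of 12428 names (rank 3 for ARID1A, 11 for ARID1B and 9 for ARID2). The gene lies on the minus strand at chr16:87863629-87903113, and its peaks ran over 38382 bp (chr16:87875958-87914339). Of the 49 peaks, 38 were intronic, 6 distal and 5 of the promoter class, so that the domain reached from upstream of the gene far into its body. They merged into 25 regions that covered 10856 bp, of which 11 held 1 ARID, 8 held 2 and 6 held all 3.

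SNF5 was found across the SLC7A5 domain. It overlapped 46 of the 49 peaks (93.9%) through 10 SNF5 peaks that together covered 20050 bp, the widest 3523 bp long. Their scores ran from 14 to 32, within a list range of 10 to 134. All 13 ARID1B peaks were multiple, as were 16 of the 22 ARID1A peaks and 9 of the 14 ARID2 peaks. The median width was 401 bp for ARID1B and 212.5 bp and 217.5 bp for ARID1A and ARID2, whereas over all SLC peaks it was 191, 212 and 187.5 bp.

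SLC7A5 has near-identical pseudogene copies, so reads there can have more than 1 source. Of its 49 peaks, 15 shared a run of 40 identical bases with SLC7A5P1 or SLC7A5P2 or their surroundings, all between chr16:87894943 and chr16:87904682, and 34 shared none. In 4 of the 15, at least 50% of the 40-base words were shared. The 47-base upstream stretch printed above was among the copied parts and occurs in identical form in a stretch covered by all 3 ARIDs at SLC7A5P1 (chr16:29626017-29626316). All 13 SLC7A5P1 peaks (2, 5 and 6 for ARID1A, ARID1B and ARID2) contained such a run, and whether their reads came from SLC7A5 was not tested.

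SLC3A2 encodes 4F2hc, the heavy chain that carries LAT1 to the plasma membrane. It had 3 ARID1A, 2 ARID1B and 3 ARID2 peaks over 34646 bp of chromosome 11, of which 5 were of the promoter class, all from ARID1A and ARID2. The ARID1B peaks were 1 intronic and 1 distal, and neither overlapped another ARID. SLC43A1, which encodes the amino acid carrier LAT3 of another family, had 3 peaks in each list, and 8 of its 9 peaks had SNF5 although 2 were multiple.

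The lactate exporter MCT4 is encoded by SLC16A3, a gene of glycolytic cells on the plus strand at chr17:80175810-80219005. It had 6 ARID1A, 5 ARID1B and 6 ARID2 peaks within 13554 bp (chr17:80185258-80198811), which is rank 63 of all names. Counting also peaks assigned to other names, 13 ARID1A, 7 ARID1B and 11 ARID2 peaks lay within 5000 bp of the gene. In contrast to SLC7A5 the 17 assigned peaks were mostly promoter sites, with 11 of 17 of the promoter class at starts inside the annotated gene. SNF5 overlapped 16 of them and 14 were multiple. The ARID1A peaks were wide, with a median of 679.5 bp, beside 199 bp for ARID1B and 225 bp for ARID2. Among other monocarboxylate carriers, SLC16A1, which encodes MCT1, had 1 ARID1A peak of 1606 bp, the third widest SLC peak of that list, and 2 ARID2 peaks.

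**Figure D3:**
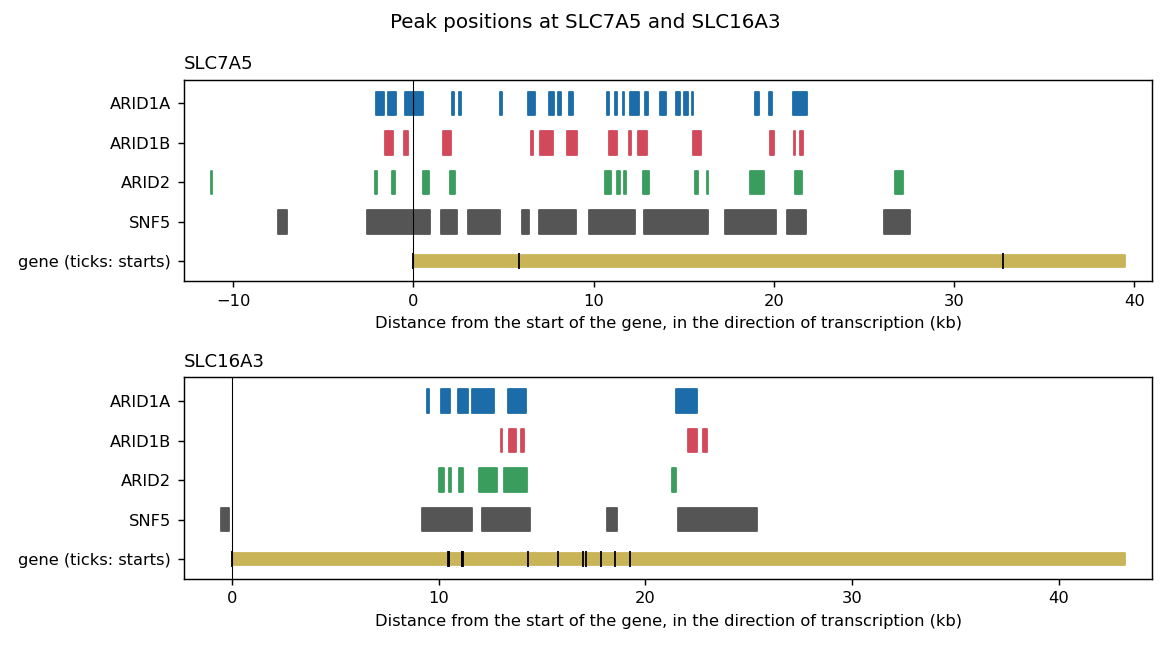
Positions of the ARID1A, ARID1B and ARID2 peaks assigned to SLC7A5 and SLC16A3, and of all SNF5 peaks in view. The scale is in kb from the start of the gene in the direction of transcription, with the gene body as a bar and annotated transcript starts as ticks. ARID peaks assigned to other names are not drawn. SLC7A5 peaks extend through much of the gene body, and the 17 peaks assigned to SLC16A3 gather at internal starts.

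SLC22A23, a member of the organic ion family whose substrate is not known, had the second largest number of peaks, with 7 for ARID1A, 9 for ARID1B and 11 for ARID2. They were scattered over 102360 bp, 20 of 27 were intronic and 18 had SNF5. The 27 peaks merged into 20 regions, of which 14 held 1 ARID and 1 held all 3.

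SLC13A3, the sodium-coupled dicarboxylate carrier of kidney and liver, had 4, 5 and 4 peaks for ARID1A, ARID1B and ARID2, 9 of them intronic and 11 with SNF5. SLC17A9, the vesicular nucleotide transporter, had 6, 2 and 5 peaks, of which 9 were multiple. SLC20A2, the phosphate importer PiT2, had 5, 2 and 3 peaks, 9 of them with SNF5. The assigned peaks of these genes, of all classes, spanned 37519, 18556 and 44228 bp. The span was 4540 bp at SLC2A4RG, a zinc finger regulator of the glucose carrier gene SLC2A4. All 9 of its peaks (3, 4 and 2) were of the promoter class and had SNF5, and its stretch shared by all 3 ARIDs, 386 bp, was the longest among SLC promoters. Its ARID1A peak of 1676 bp and ARID2 peak of 1559 bp were the widest SLC peaks of their lists.

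The next longest promoter stretches shared by all 3 ARIDs were 367 bp at SLC20A1, the phosphate importer PiT1, 347 bp at SLC16A3, 322 bp at SLC35C2 of the Golgi and 312 bp at SLC5A6, the biotin and pantothenate importer. SLC38A2, the amino acid importer SNAT2, had 283 bp, and SLC9A3R1, a scaffold that binds transporters, had 254 bp. SLC16A6 (248 bp), the endoplasmic reticulum zinc carrier gene SLC39A7 (235 bp) and SLC35B2 (208 bp), which loads sulfate donor into the Golgi, completed the 10 longest.

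The SLC sites with the highest SNF5 scores were promoters. SLC39A3 encodes the zinc importer ZIP3, and its ARID1A peak of 261 bp, ARID1B peak of 136 bp and ARID2 peak of 309 bp all overlapped an SNF5 peak of score 68 that was 159 bp wide. SLC44A1, a choline carrier, followed with an ARID1A and an ARID2 promoter peak at an SNF5 peak of score 44, while its ARID1B peak lay in an intron 36069 bp from the nearest start, without SNF5. The widest ARID1B SLC peaks were at SLC7A5P1 (1108 bp), SLC25A12 (722 bp) and SLC13A3 (708 bp). For ARID2, SLC39A10 (1240 bp) and SLC16A3 (1117 bp) came after SLC2A4RG, and for ARID1A, SLC38A2 (1611 bp) did.

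Among names with at least 3 peaks, 3 were found in a single list. SLC35D2, a nucleotide sugar carrier of the Golgi, had 4 ARID1B peaks, and SLC23A2, the vitamin C importer SVCT2, had 3 ARID1B peaks. SLC7A10, which encodes the neutral amino acid exchanger Asc-1, had 3 ARID2 peaks. The ARID1B peaks of these genes were intronic except for 1 at the SLC23A2 promoter, 4 of the 7 overlapped SNF5, and none of the SLC7A10 peaks did.

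Nearest-gene assignment placed some peaks far from their gene or in a neighbour. Outside the promoter class, 156 of 241 SLC peaks lay inside the body of the SLC gene itself (64.7%, 58.5 to 70.5), 21 lay in another coding gene and 64 in none. For coding names the first share was 67.1% (60.8 to 72.8) at SLC genes and 61.3% over all peaks. All 8 peaks of SLC22A7, which encodes the hepatic organic anion carrier OAT2, lay within TTBK1, 17404 to 20350 bp from the assigned start, and 7 of the 8 SLC22A31 peaks lay within CDH15. The farthest SLC peaks were an ARID2 peak 183364 bp from SLC38A4, an ARID1B peak 95512 bp from SLC39A8 and an ARID1A peak 32507 bp from SLC6A2. Their target genes are not known from these data.

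By substrate, the families differed in where the ARIDs sat. Nucleotide sugar carriers of the SLC35 family had 41 peaks at 18 genes, 90.2% of them of the promoter class, and the mitochondrial SLC25 carriers had 67 peaks at 27 genes with 82.1%. Carriers of inorganic ions (74 peaks at 25 genes, 79.7%) and of zinc and other metals (53 peaks at 19 genes, 79.2%) were similar. The low end was held by carriers of bile acids, organic ions and drugs (73 peaks at 16 genes, 34.2%) and of amino acids, neurotransmitters and peptides (154 peaks at 32 genes, 41.6%). In these groups a few genes with many intronic peaks weighed heavily: SLC22A23 gave 27 of the 73 peaks and SLC7A5 gave 49 of the 154. All 14 peaks of SLC4 names were of the promoter class, whereas 19 of the 76 SLC7 and 14 of the 57 SLC22 peaks were. Families and groups were formed by name, so they also count names that are not transporters. SLC4A1AP gave 1 of the SLC4 peaks, and SLC9A3R1 and SLC9A3R2 gave 5 each to the inorganic ions. The pseudogene SLC7A5P1 gave 13 peaks to SLC7 and to the amino acid group. The SLC38 amino acid carriers had 32 peaks, of which 28.1% were multiple. Over all 622 SLC peaks the promoter class held 61.3% and multiple peaks 47.7%.

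**Figure D4:**
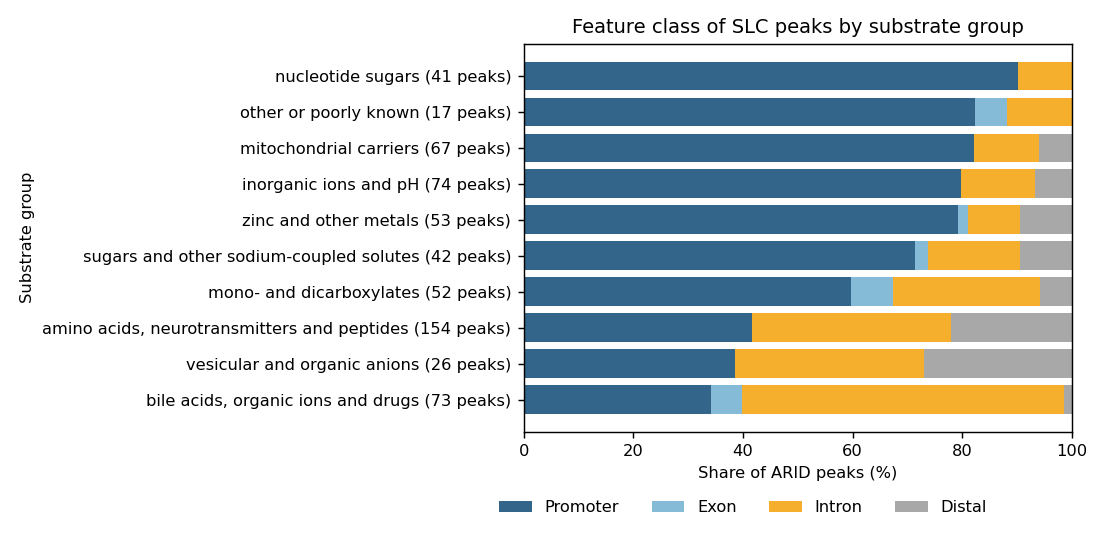
Feature class (promoter, exon, intron, distal) of the ARID peaks of each substrate group with more than 10 peaks, as a share of its peaks over the 3 lists in percent. The promoter share runs from 90.2% for nucleotide sugars to 34.2% for bile acids, organic ions and drugs.

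Seen from the annotation, 180 of 373 coding SLC genes had an assigned ARID peak (48.3%, 43.2 to 53.3), beside 43.8% of all coding genes, and 4 of the 180 carried an older name without SLC in the lists. By distance alone the order was the other way, with an ARID peak within 5000 bp of 196 of the 373 genes (52.5%) and of 53.6% of all coding genes. Of the other 177, 29 had an SNF5 peak within that distance and 148 had neither. The carriers with ARID peaks were sorted by lists of genes known for growth and general metabolism, hepatocytes, neurons, and kidney and gut. These lists were drawn up with earlier results of these data known, and the intervals do not cover that choice.

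Growth and housekeeping carriers were the most often occupied. Of 28 such genes 25 had a peak (89.3%, 72.8 to 96.3), 21 from ARID1A, 9 from ARID1B and 20 from ARID2, and 24 had a promoter peak. All 3 ARIDs were found at 9 of them: SLC1A4, SLC3A2, SLC7A5, SLC16A3, SLC20A1, SLC25A33, SLC33A1, SLC35B2 and SLC38A2. SLC1A4, the neutral amino acid exchanger ASCT1, had 2 promoter peaks from each ARID, all 6 with SNF5 and 5 multiple. SLC33A1, the acetyl-CoA carrier of the endoplasmic reticulum, had 1 promoter peak from each, all multiple and with SNF5. SLC7A1, SLC19A1 and SLC25A5 had none. The 144 peaks of the list were multiple in 61.8% and overlapped SNF5 in 78.5%, and 49 of them were those of SLC7A5.

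Of 34 hepatocyte carriers 24 had a peak (70.6%, 53.8 to 83.2), 17 from ARID1A, 14 from ARID1B and 21 from ARID2, and 10 had all 3. Their 95 peaks were multiple in 33.7%, overlapped SNF5 in 70.5% and were of the promoter class in 48.4%. Among the drug and bile carriers, SLC47A1, which encodes the drug exporter MATE1, had 2, 2 and 4 peaks for ARID1A, ARID1B and ARID2. None of these 8 overlapped another ARID and 2 had SNF5. SLC51B, a subunit of the bile acid exporter OST, had 1, 1 and 2 promoter peaks, all multiple and with SNF5, and its partner SLC51A had 1 ARID2 peak in an intron. SLC22A9 had 1 ARID1B promoter peak. The bile acid importer gene SLC10A1, a hallmark of differentiated hepatocytes, had no assigned peak. SLC10A5, a related gene of the same family, had 1 ARID1B and 1 ARID2 peak.

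Among the carriers of hepatic glucose, citrate and phosphate metabolism, SLC2A2, which encodes the liver glucose carrier GLUT2, had 1, 4 and 1 peaks, none at its promoter and all 6 with SNF5. SLC37A4, the glucose-6-phosphate carrier, had 1 ARID1A and 2 ARID2 peaks. SLC13A5, the citrate importer, had 2 ARID1A peaks, and SLC17A2 had 4, 2 and 1. The mitochondrial carriers SLC25A13 (1, 1 and 2 peaks), SLC25A15 (1, 0 and 1) and SLC25A42 (1, 1 and 1) serve aspartate, ornithine and coenzyme A transport. All 4 SLC25A13 peaks were multiple promoter peaks with SNF5, and none of the SLC25A15 and SLC25A42 peaks overlapped another ARID. SLC27A5, the bile acid and fatty acid ligase, had 1 ARID1A and 2 ARID2 peaks, none with SNF5.

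Among the hepatic amino acid carriers, the glutamine carrier gene SLC38A3 had 5 ARID1A and 2 ARID2 peaks, all single. SLC7A2 had 1 ARID1A and 2 ARID2 peaks, SLC16A10 had 1 of each, and SLC6A12 had 1 ARID1B and 1 ARID2 peak. Of these, the SLC16A10 peaks, at the promoter of an aromatic amino acid carrier, were multiple. SLC38A4 had the distant ARID2 peak given above. For metals and sulfate, SLC39A14, which encodes the zinc, iron and manganese importer ZIP14, had 4, 2 and 4 peaks, of which 8 had SNF5 and 2 were multiple. The manganese exporter gene SLC30A10 had 1 ARID2 promoter peak, and the sulfate exchanger gene SLC26A1 had 2, 1 and 1 promoter peaks, all with SNF5. The other 9 hepatocyte carriers without an assigned peak were SLC6A13, SLC17A1, SLC17A4, SLC22A10, SLC22A25, SLC25A47, SLC27A2, SLC39A5 and SLC40A1, the last of which encodes the iron exporter ferroportin. Within 5000 bp of SLC22A25 there were 2 ARID1A and 1 ARID1B peaks assigned to other names, and no ARID peak lay that close to the other 8 or to SLC10A1.

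Carriers of neurons and of kidney and gut had fewer sites. Of 24 neuronal genes 8 had an assigned peak (33.3%, 18.0 to 53.3) and none had assigned peaks of all 3 ARIDs. ARID1B gave 7 of the 12 peaks, ARID1A 4 and ARID2 1. At promoters these were found at SLC12A5, a potassium chloride exporter (1 ARID1A and 1 ARID1B peak), SLC17A7, a vesicular glutamate carrier (1 ARID1B peak), and SLC6A11, a GABA importer (1 ARID2 peak). None of these 4 promoter peaks overlapped SNF5 or another ARID. Of 23 kidney and gut genes 4 had an assigned peak (17.4%, 6.98 to 37.1), and those with promoter peaks were SLC13A3 and SLC34A1, the renal phosphate importer gene. By distance, an ARID peak lay within 5000 bp of 6 of 24 neuronal genes (25%) and 6 of 23 kidney and gut genes (26.1%). SLC1A2 then had 1 peak of each ARID. The same share was 67.6% for hepatocyte and 85.7% for growth carriers. Because the lists were drawn up with earlier results known, the intervals of the assigned shares cannot support a difference between lists. Some assigned peaks also lay far from their gene, as at SLC22A7 and SLC38A4 among the hepatocyte carriers. Expression of these genes was not analysed here.

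**Figure D5:**
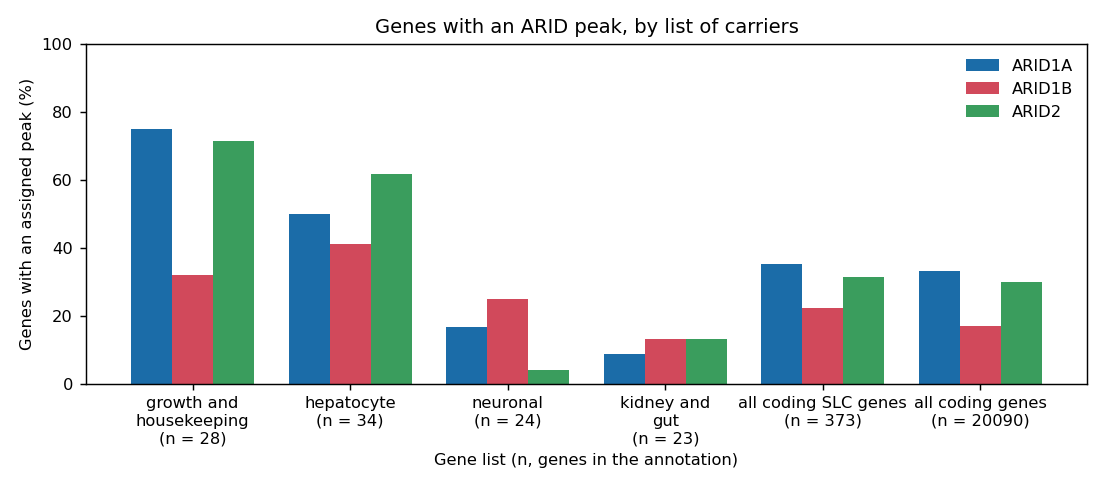
Share of the genes of each list with at least 1 assigned peak of ARID1A, ARID1B or ARID2, in percent of the genes of the list in the annotation (n below each name). Bars of the growth and hepatocyte lists stand above those of all coding genes in all 3 ARIDs, and ARID2 is lowest in the neuronal list, at 1 of 24 genes.

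The E-box CACGTG, a palindrome read by basic helix-loop-helix factors such as MYC, USF and TFE3, was searched in 300 bp around the middle of each peak. It occurred in 30 of 222 ARID2 SLC windows (13.5%, 9.63 to 18.6), beside 7.30% of all ARID2 windows. It occurred in 18 of 153 ARID1B windows (11.8%, 7.57 to 17.8), beside 5.24%, and in 25 of 247 ARID1A windows (10.1%, 6.95 to 14.5), beside 7.99%. The ARID2 difference lay in promoters, with 24 of 140 windows (17.1%, 11.8 to 24.2) beside 7.95% of all promoter windows of that list, each in a different gene. At promoters the ARID1B share was 13.4% (7.23 to 23.6) beside 7.83%, and the ARID1A share was 11.5% (7.57 to 17.1) beside 8.69%. In ARID1B intron and distal windows, E-boxes were in 9 of 83 at SLC genes (10.8%, 5.81 to 19.3) and in 3.68% over the list. SLC7A5 did not carry these values, since without it the shares over all windows were 13.9%, 12.1% and 11.1% for ARID2, ARID1B and ARID1A. Among coding names the ARID2 promoter share was 16.8% (11.5 to 23.9) at SLC genes and 8.03% over the list.

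Base composition differed as well, and its part in the E-box share was not tested. The ARID2 promoter peaks at SLC genes had a median of 63.6% G or C, beside 61.5% over the list, and their windows had a median observed to expected CpG ratio of 0.678, beside 0.743. Of the other motifs, the forkhead letters TGTTTAC were in 6 of 67 ARID1B promoter windows at SLC genes (8.96%, 4.17 to 18.2), beside 3.39% of the list, and in 13 of all 153 ARID1B SLC windows, where the lower end of the interval (5.03%) was under the 6.06% of the list. Over all ARID1A and ARID2 SLC windows they were in 3.24% and 3.15%, beside 3.53% and 4.19%. The ETS letters CCGGAAG were in 8.10%, 1.96% and 5.41% of ARID1A, ARID1B and ARID2 SLC windows, beside 10.5%, 5.03% and 7.93%. The NRF1 core CGCATGCG was in 0.81%, 0% and 1.35%, beside 3.10%, 1.07% and 2.96%. The CCAAT box was in 27.5%, 28.8% and 25.2%, beside 26.6%, 29.0% and 29.8%. The AP-1 letters TGANTCA were in 5.67%, 9.15% and 3.15%, beside 6.49%, 9.70% and 6.87%, and the ARID2 interval (1.54 to 6.36) lay below its list. The C/EBP letters TTGCNNAA were in 7.69%, 12.4% and 9.46%, beside 8.52%, 14.5% and 11.7%. In ARID2 intron and distal windows the C/EBP letters were in 7.89% (3.67 to 16.2), beside 16.9%. A match is a run of letters and was not shown to be bound.

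Windows of promoter-class SLC peaks held 48 E-boxes in 36 of the 156 genes with such a peak, 8 of them among the 26 SLC25 genes and 4 among the 17 SLC35 genes. Of the 48, 41 lay inside at least 1 ARID peak, 15 inside 2 or 3, 4 inside all 3, and 34 inside an SNF5 peak. The windows were centred on ARID peaks, which favours sites inside a peak. SNF5 overlapped 73.6%, 77.6% and 69.3% of the promoter-class SLC peaks of ARID1A, ARID1B and ARID2, with or without an E-box. These site and gene counts were not made over all promoter-class peaks. The 4 sites inside all 3 ARIDs are shown first, with 10 bases on each side, from the plus strand of GRCh37, and the E-box in capitals. They are those of SLC20A1 (chr2:113403300-113403325), SLC35B2 (chr6:44225075-44225100 and chr6:44225096-44225121) and SLC38A2 (chr12:46765204-46765229). They are followed by sites of the mitochondrial carrier genes SLC25A10 (chr17:79678947-79678972), SLC25A13 (chr7:95951549-95951574) and SLC25A25 (chr9:130865563-130865588), each inside 2 ARID peaks, and by the promoter E-box of SLC7A5 (chr16:87902323-87902348), inside its ARID2 promoter peak.
SLC20A1: tgtcccgcccCACGTGgaccggctcc
SLC35B2, first: gcgcggcagtCACGTGgcccgggggc
SLC35B2, second: ggggctcggtCACGTGagctcgctgc
SLC38A2: ccgccgcggtCACGTGacgccgcccg
SLC25A10: acgccgcacaCACGTGgcccccgcca
SLC25A13: tggacagggaCACGTGaccccgctgc
SLC25A25: gatctggttaCACGTGagatctcaga
SLC7A5: gaaagaaacgCACGTGgtttctggga
The 8 sites all lay inside an SNF5 peak.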

How the data were processed

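ChIP-seq of HepG2 cells was deposited as 1 peak list per subunit on hg19. The authors aligned reads with Bowtie2, merged the 2 replicates and called broad peaks, and whether the input served as control was not stated. Each deposited ARID row gives the boundaries, feature class, nearest gene, TSS distance and a Single or Multiple label. Its promoter class is narrower than the 2000 bp on each side of a TSS given in the study's text. The deposited SNF5 list gives boundaries and a score whose scale is not given in the sources used here. The deposited label equalled a 1 bp overlap for 99.9% of rows in each list. A deposited chromatin-state column was not used, because it was displaced against its rows: active promoter states fell on 81.1% of promoter-class and 28.5% of other ARID1A peaks on chromosome 1, but on 65.7% and 52.7% elsewhere, and on 14 of 17 other chromosomes with at least 300 ARID1A peaks another offset of up to 6 rows matched the classes better (12 of 12 for ARID1B, 17 of 17 for ARID2).

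Overlaps were computed with Python 3.11.15 and pandas 2.3.3 and tested on simulated peaks. Gencode v44 lifted to GRCh37 gave gene bodies, biotypes and starts (179 SLC names matched by name, 3 by an older symbol). Motifs were searched on both strands within 150 bp of each midpoint. Depth per peak is unknown. Named genes were the 10 with most peaks, the 10 longest shared promoter stretches, hepatocyte genes with a peak (a few items are not reported here), the 3 widest peaks and the farthest peak per list, names with at least 3 peaks in 1 list and none elsewhere, the 5 peaks with the highest SNF5 score, growth carriers in all 3 lists, and neuronal or kidney and gut carriers with a promoter peak. Others named were chosen after their values were seen. Members and gene lists were chosen with earlier results of these data known. Coding-name backgrounds were added after the data were seen.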

Additional observations from a re-analysis of the deposited data

How the results depend on the processing

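Over 12 results and 76 settings, 45 values stayed within their limit and 31 moved past it. The limit was the counting interval for a share and 1.5 times for a count. In the order ARID1A, ARID1B, ARID2, the SNF5 share of SLC peaks was 12.15%, 5.229% and 4.955% with a reciprocal overlap of 50%, 87.85%, 86.93% and 84.68% with gaps of up to 1000 bp, 86.67%, 81.82% and 76.36% for peaks wider than the list median, and 54.66%, 64.05% and 52.25% with SNF5 peaks above the median score. With midpoints at most 500 bp apart it was 58.3% for ARID1A and 57.52% for ARID1B. The multiple share was 16.19%, 14.38% and 18.02% with the reciprocal overlap and 74.9%, 64.05% and 76.13% with gaps. For ARID1A and ARID2 it was 57.49% and 59.01% by midpoints and 61.67% and 66.36% for wide peaks. The promoter share was 59.11%, 33.99% and 49.55% within 500 bp of a TSS and 78.95%, 53.59% and 78.38% within 2000 bp. Without SLC7A5, a setting chosen after seeing the data, the ARID1A promoter share was 76.44%. The causes of these moves were not tested.

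Set against the whole list, the ARID1B SNF5 share at SLC genes was higher in 7 of 8 settings, with its interval above the list in 5, and lower with the reciprocal overlap. Both sides followed the same rule except in the coding-name setting, where the list side dropped only noncoding SLC names. Against all coding names (66.5%) the SLC share of 76.9% (69.4 to 83.0) was also higher. The counts of genes in 2 or 3 lists (109), in all 3 (49) and of regions with 2 or 3 ARIDs (126) stayed within 1.5 times under each setting run. No paired analysis was possible because the replicates were merged before peaks were called, and for the same reason no run without a replicate was made. Depth, antibody efficiency and thresholds differ between the lists by amounts that are unknown, so a missing peak is not evidence of absent binding.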
